A study of Homo sapiens with 42 samples.

Results

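The genomic DNA of K562 cells was read at adenosines after expression of a nuclear adenosine deaminase, and 102614 of 878631 listed sites (11.7%) had at least 20 reads in both the deaminase library and its control. These 102614 sites are the members described here, 99993 of them on chromosomes 1 to 22, X and Y and 2621 on the mitochondrial genome. The rate of a site is the number of reads with the change over all reads at it. K562 is a wild-type human erythroleukaemia line, established from a patient with chronic myeloid leukaemia and labelled as bone marrow in origin. One arm received by electroporation a plasmid for TadA-8e with a nuclear localisation signal (NLS) together with GFP, and the control received GFP alone. Expression was transient, GFP-positive cells were sorted in both arms, and each arm gave 1 library, so no spread between replicates can be had. The series, 42 libraries in all, used the enzyme to mark adenosines in RNA of the nucleus, the cytoplasm and the endoplasmic reticulum membrane, and the DNA libraries ask whether adenosines in DNA changed as well.

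TadA-8e is a laboratory-evolved form of a bacterial enzyme that deaminates an adenosine in tRNA. It is the deaminase of adenine base editors, where it turns deoxyadenosine into deoxyinosine in single-stranded DNA opened by Cas9. Inosine pairs with cytosine and is read as guanine, so an edited adenosine appears as an A-to-G change, or as T-to-C when the other strand is read. Bacterial TadA acts on an anticodon in which the adenosine follows a uracil, and evolved forms are known to favour a preceding thymine or uracil. Mitochondrial DNA is a small circle in many copies per cell, lies outside the nucleus, and is covered far more deeply by the same reads than any chromosome.

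Sequence around the sites was read from RefSeq promoter windows of build GRCh38.p14, the same assembly as the hg38 coordinates of the files, since 343 members fell inside them with a base before the adenosine. The stretches below run 5′ to 3′ on the strand of the adenosine, which stands in capitals with 10 bases on either side. They show 4 DNA sites of low p in the windows, chosen after their values were seen. These are not the full set of lowest p, so no count by direction can be drawn from them.

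EBNA1BP2, chr1:43172251-43172271, minus strand: ctggcgctggAgcgattcggt
LOC124905026, chr21:43314211-43314231, plus strand: tggtggcctcAgggcacgggg
KCNH2, chr7:150975064-150975084, minus strand: ccctgctgggAccccagtccc
CORO2B, chr15:68632091-68632111, plus strand: gctagaaggtAgtcagattcc

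The site near the start of EBNA1BP2, a nucleolar protein of ribosome assembly, had 27 of 34 changed reads in the NLS library and 9 of 27 in the control. The site of KCNH2, a potassium channel gene, had 12 of 33 against 1 of 31, and that of LOC124905026 18 of 27 against 4 of 23. The site of CORO2B, which encodes a coronin of the actin cytoskeleton, went the opposite way, with 13 of 26 against 20 of 22. None of the 4 passed the test over all members, with adjusted p from 0.203 to 0.404 by Fisher's exact test with Benjamini-Hochberg adjustment. The base before the adenosine was guanine at EBNA1BP2 and KCNH2, cytosine at LOC124905026, and thymine at CORO2B.

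For contrast, these are the sites of highest rate in poly(A) RNA of K562 cells with the same NLS enzyme (2 libraries) that fall in the same windows, written as DNA.

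TIMM23B, chr10:49942101-49942121, plus strand: acgcggggttAcccgctgtta
STK19, chr6:31972209-31972229, plus strand: tgatgctggtAtgtgcgtcgc
BAG6, chr6:31652448-31652468, minus strand: atccccaaatActatcgggga
TLK2, chr17:62479058-62479078, plus strand: ctggctctgtAcgcgagcccg
REPIN1, chr7:150369182-150369202, plus strand: acgcatcagtAcaaaagggcg

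All 5 have a thymine (uracil in the RNA) before the adenosine. Their RNA rates as deposited were 71.7% and 88.8% in TIMM23B, 71.4% and 79.4% in STK19, 70.2% and 74.4% in BAG6, 68.8% and 75.4% in TLK2 and 60.3% and 83.6% in REPIN1, in the first and second library. None of these 5 positions was a member site in DNA. A position without a changed read in the control cannot be listed, so this does not show whether their DNA changed.

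Over all windows, a thymine stood before 15.2% of 4090280 adenosines. In K562 NLS RNA it stood before 47.8% of 4634 called adenosines (95% exact binomial interval 46.4 to 49.3%), in RNA of the form with a nuclear export signal (NES) before 38.9% of 6483 (37.7 to 40.1%), and in HEK293T NLS RNA, from a kidney-derived line, before 46.2% of 5094 (44.8 to 47.6%). At the 343 DNA members it stood before 11.7% (8.46 to 15.5%), and at all 2959 listed DNA sites of the windows before 14.7% (13.4 to 16.0%). At the 250 listed DNA sites whose mean rate over the libraries was under 20%, the share was 9.20% (5.92 to 13.5%), and at the 66 members among them 16.7% (8.62 to 27.9%). The intervals of the members, of the low-rate members and of all listed DNA sites include the share of all adenosines, that of the low-rate listed sites lies below it, and the RNA intervals lie above it. The RNA sites were called against a control, while every listed DNA site was changed in the control too. The DNA shares therefore do not test whether the enzyme edited DNA. The DNA members after a thymine, 40 in number, had a pooled rate of 38.3% in the NLS library and 38.2% in the control. Of 344 members in the windows, 163 had an adenine and 181 a thymine on the plus strand, and 0 had another base, so both strands of DNA were listed. The windows lie at gene starts and hold few of the members, which limits this to gene-rich DNA.

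The table itself limits what can be seen. Every listed site had at least 1 changed read in both libraries, with at least 3 in sum, so a site changed only in the NLS library cannot be listed. Sums over the members are therefore rates at sites already changed in the control, not rates over the genome. Changed reads also came in even numbers: of nuclear members with both rates under 20% and 2 to 7 changed reads, 82.0% of 34366 in the NLS library and 81.9% of 34414 in the control had an even count. On mitochondrial DNA the shares were 63.5% of 1961 and 60.3% of 1863. Reads at nuclear members were thus not all independent molecules. The intervals below treat reads as independent, cover counting error only, and are too narrow where reads are not. The even share that independent reads would give was not computed, so the smaller mitochondrial shares do not by themselves show such dependence. The cause of the even counts was not tested.

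Depth was alike in the 2 libraries, with 28930605 reads over members in the NLS library and 28403599 in the control and a median of 34 reads a site in each. Nuclear members had medians of 33 and 34 reads, mitochondrial members 4973 in both. Signs of the line were present among the listed sites. No site was listed on chromosome 9 between 20739043 and 26633843, a stretch that holds CDKN2A, CDKN2B and MTAP, genes lost from both copies in K562. A listed site needs changed reads in both libraries, so the gap does not show the loss in each library separately. Listed sites in ABL1, the kinase gene amplified with its BCR fusion in this line, had medians of 88.5 and 86 reads, and those in BCR 80 and 89, against 13 over all listed sites. All 15 erythroid and K562 markers had called sites in K562 NLS RNA, HBG2 at 103 sites and GATA1 at 67, while of 5 HEK293T markers NEFM, NEFL and PAX2 had 0, LIN28B 154 and ZIC2 8. In HEK293T NLS RNA, NEFM had 57 sites, NEFL 27, PAX2 0, LIN28B 132 and ZIC2 55. PAX2 and LIN28B thus did not set the lines apart. Of the 15 K562 markers, 1 had sites in HEK293T NLS RNA, TFRC at 244. PTPRC, a leukocyte gene listed for contrast, had 76 sites in K562 NLS RNA, and CD3E and ALB had 0. The karyotype of K562 has no Y chromosome, yet 10416 sites were listed on Y, 7042 of them members, with a median of 40 reads over the listed ones. Whether those reads come from copies elsewhere in the genome was not tested.

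Site by site, differences between the libraries were nearly balanced in direction. The rate was higher in the NLS library at 43361 members, higher in the control at 43810 and equal at 15443, and the median difference was 0. Differences over 5 percentage points were seen at 20191 sites with the NLS library higher and 20491 with the control higher. Over 10 points the counts were 11614 and 11620, and over 20 points 3952 and 3965. Beyond 50 points the counts were 61 and 43. The central span of differences, from the 5th to the 95th percentile, ran from −17.8 to 17.7 points. The rates correlated across sites with Pearson's r = 0.957 (n = 102614 sites that share their library and depth, a description with no test). The spread of the differences was 1.16 times what counting error gives, between 0.902 and 1.34 times in nuclear rate classes and 1.02 times on mitochondrial DNA. Only sites with a changed read in both libraries are listed. The ratios at low rates therefore do not show that sites there vary no more than counting error.

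**Figure D1:**
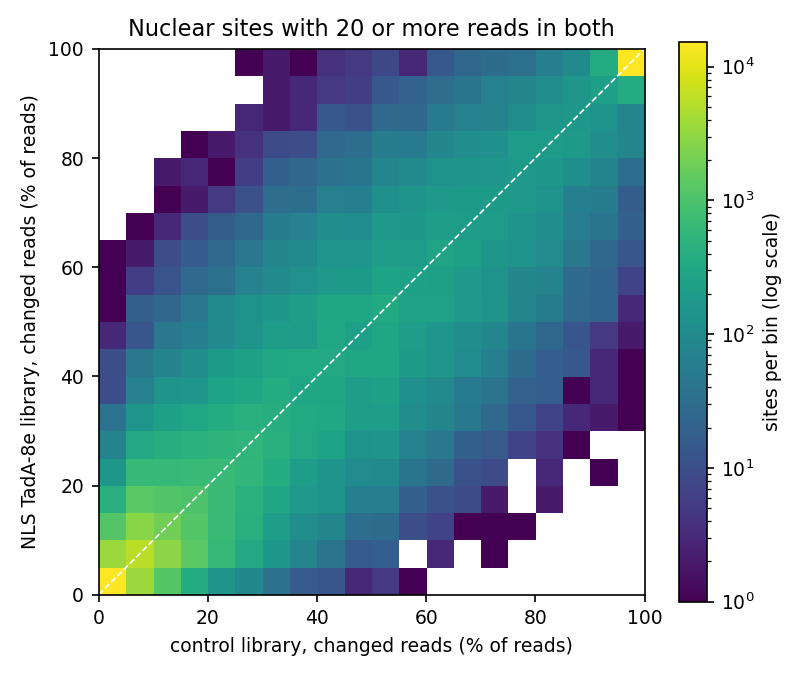
Rates of the 99993 nuclear members, control library on the horizontal axis and NLS TadA-8e library on the vertical axis, both in percent of reads; colour gives the number of sites per bin of 5 by 5 points on a log scale and the dashed line marks equal rates. 68.5% of sites lie in a bin on or next to the line, and the cloud is much alike on its 2 sides.

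**Figure D2:**
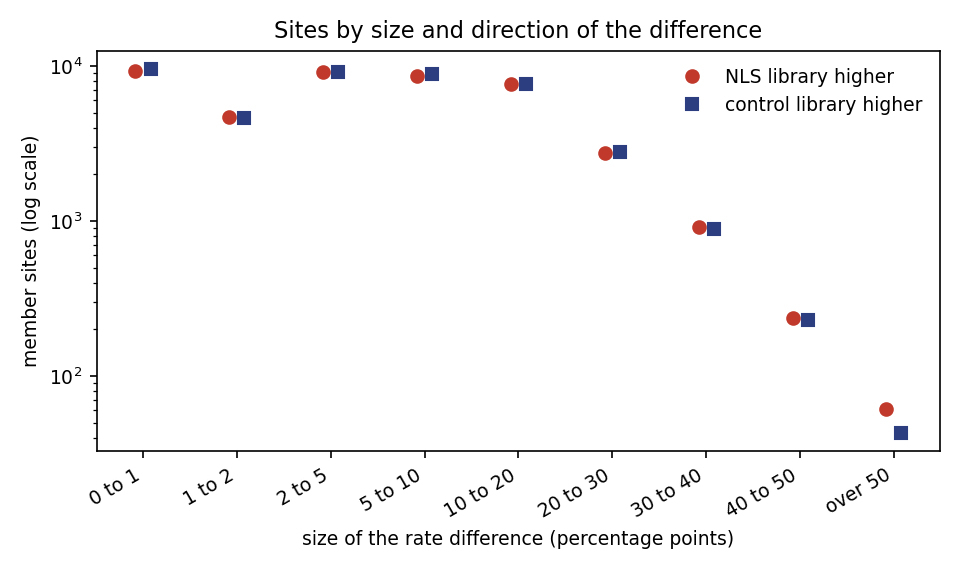
Number of members (log scale) by the size of the rate difference in percentage points, for sites higher in the NLS library (red circles) and in the control (blue squares). The 2 directions lie close in every size class, with 7662 and 7655 sites at 10 to 20 points, and 61 and 43 over 50 points.

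Each rate class held a similar number of members in both libraries. Rates of 80% and over held 19295 members in the NLS library and 19248 in the control. Rates of 20% to under 80% held 30943 and 31025, and 5% to under 20% held 28987 and 29005. Inherited differences of a line from the reference would lie mostly in the classes of 20% and over. The low classes, where editing of a small share of molecules would appear, held 15351 and 15318 sites at 1% to under 5%, and 8038 and 8018 under 1%. The same class was reached in both libraries by 74.9% of members. Moves of 2 classes or more were 326 upward in the NLS library and 337 downward. Of the sites at 80% and over in the NLS library, 92.1% were so in the control, and of those at 1% to under 5% 57.4%. A single changed read was found at 3484 members in the control and at 3588 in the NLS library. Sites just inside the minimum, with 20 to 24 reads in the shallower library, had pooled rates of 54.0% and 54.2% (37000 sites), and those just outside it, with 15 to 19 reads, 62.5% and 62.3% (111651 sites).

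Pooled over reads, the members had a rate of 5.48% in the NLS library and 5.63% in the control, a difference of −0.152 points (95% interval −0.164 to −0.140). On nuclear chromosomes the rates were 9.13% and 9.46%, −0.334 points (−0.354 to −0.314). The mean of the nuclear site rates, which gives each site equal weight, differed by −0.0136 points. Within classes of the mean rate, the nuclear difference lay between −0.169 points (43.9% against 44.0%, at 20% to under 80%) and −0.00521 points (0.282% against 0.287%, under 1%). The pooled gap moved with how reads were spread over deep sites of low rate: the 4847 nuclear members with 500 reads or more in both libraries had 1.78% and 1.81%, and the other 95146 had 23.2% and 23.4%. No mean-rate class of nuclear sites had the higher pooled rate in the NLS library. The interval spanned 0 at 1% to under 5%, at 5% to under 20% and at 80% and over. By number of sites, the NLS library was higher at 1% to under 5% (6789 against 6710) and at 80% and over (1998 against 1965). In the other classes more sites were higher in the control. Members with a control rate under 5% were higher in the NLS library by 0.0617 points, a choice that selects on the control alone, and those with a mean of both rates under 5% differed by −0.00700 points (−0.0106 to −0.00335).

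By chromosome, the pooled rate was lower in the NLS library on 17 of 24 nuclear chromosomes and higher on 7. The ends were chromosome 8, at −0.725 points (31.5% against 32.2%, 1265 sites), and chromosome 11, at 0.477 points (43.5% against 43.0%, 1643 sites). On both, more sites were higher in the NLS library than in the control, 510 against 499 on chromosome 8 and 613 against 570 on chromosome 11. The counting interval lay below 0 on 11 chromosomes and above 0 on none. The median site difference was 0 on 23 of the 24 and −0.0180 points on Y. Chromosome 16 had the lowest NLS rate, 2.88% against 2.95% over 5899 sites, and chromosome 13 the highest, 53.9% against 54.2% over 1852. Chromosome X held 88 members, 39 higher in the NLS library and 33 in the control.

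Members were unevenly spread along the chromosomes. Of 2240 windows of 1000000 bases with a member, the 10 fullest held 23640 nuclear members (23.6%) and 42.6% of the nuclear NLS reads. The fullest was chromosome 4 from 49000001 to 50000000, at the centromere, with 3820 members and rates of 7.35% and 7.36%. Y from 11000001 to 12000000 followed with 3614 (6.50% and 6.59%), then chromosome 21 from 9000001 to 10000000 with 2931 (17.8% and 17.9%). The window on chromosome 16 from 46000001 to 47000000 was the deepest of the 10, with medians of 2478 and 2408 reads a site and rates of 1.86% and 1.88%. Among 158 windows with at least 100 members, 70 were higher in the NLS library and 88 lower, from −3.65 to 2.92 points.

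Genes held fewer members than intergenic DNA. By RefSeq annotation, 59.6% of nuclear members lay in no gene, 26.4% in protein-coding genes, 7.85% in long noncoding RNA genes and 4.37% in pseudogenes, against 45.5%, 40.2%, 12.1% and 1.91% of all listed nuclear sites. Rates in protein-coding genes were 41.8% and 42.0%, in long noncoding RNA genes 19.9% and 21.1%, in pseudogenes 17.0% and 18.4%, and outside genes 6.14% and 6.32%. Other genes, with 1741 members, were the only class higher in the NLS library, at 20.8% and 20.4% (difference 0.394 points, 0.0997 to 0.688). The table gives no exons, so exonic and intronic sites were not separated. Of 293 genes with at least 20 members, 141 had a higher pooled rate in the NLS library and 152 a lower one, with a median difference of −0.0236 points and a counting interval clear of 0 in 23 genes in each direction. The 10 genes with most members were picked by that number after the data were seen, and 5 of them were higher in the NLS library and 5 lower. IGL and IGK, the immunoglobulin light chain loci, held 1034 members (40.4% against 40.2%) and 803 (7.63% against 7.33%, interval of the difference 0.0427 to 0.553 points). BAGE2, annotated as a transcribed pseudogene on chromosome 21, held 537 (31.4% against 31.2%), GPC5, a cell-surface glypican gene, 497 (57.8% against 57.5%), and PTPRN2, a receptor-type phosphatase gene, 351 (37.2% against 37.1%). The long noncoding RNA genes among these 10 were all lower. LOC112268408 held 608 members (2.97% against 3.02%), LOC102723769 468 (26.5% against 28.3%, interval of the difference −2.43 to −0.999 points) and LOC101930100 344 (14.2% against 14.9%, −1.27 to −0.269 points). Lower too were the pseudogenes TEKT4P2, with 493 members (25.4% against 26.0%), and ROCK1P1, with 368 (3.03% against 3.11%). ABL1, named for its amplification, held 158 (26.9% against 28.0%). The ends of the range were DNAJB6, a heat shock co-chaperone, with 51.3% against 39.0% over 23 members, and CPED1 with 32.7% against 41.7% over 20. Those ends were also chosen after their values were seen, and in genes of 20 to 30 shallow sites they rest on 486 to 643 reads a library. In repeated loci and genes with near-identical copies, reads of several copies may be counted at 1 site, and their part in these rates was not tested.

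A test of each site compared changed and unchanged reads of the 2 libraries by Fisher's exact test, two-sided, which compares these libraries and not the conditions. After Benjamini-Hochberg adjustment over all 102614 members, 5 sites (0.00487%) were higher in the NLS library and 6 (0.00585%) lower at an adjusted p under 0.05. At an unadjusted p under 0.05 the numbers were 3149 (3.07%) and 3176 (3.1%). A rate at least 2 times as high was found at 11211 members (10.9%) for the NLS library and at 11430 (11.1%) for the control. Counts in the 2 directions were close by each of these rules. For a further site to pass beside those called, with equal depth in both libraries and 2 changed reads in the control, 17 changed NLS reads were needed at 20 reads, 20 at 33, 23 at 100 and 25 at 4973, or 0.503%. Below these numbers a change over such a control was not detectable site by site. With every count halved and rounded down, because of the even counts, no site was called in either direction by the same test, and 520 and 518 had an unadjusted p under 0.05.

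A single called site reached 100 reads in each library, in LAMC3, which encodes a laminin chain of basement membranes. At chr9:131041209-131041209 it had 23 of 127 changed reads in the NLS library and 3 of 154 in the control, 18.1% against 1.95% (adjusted p = 0.0420 by Fisher's exact test). The 83 members in LAMC3 were higher in the NLS library at 37 and in the control at 37, and pooled to 17.7% and 18.2%. LAMC3 lies on the same chromosome arm as ABL1, and its members had medians of 109 and 114 reads.

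The other 10 called sites had between 20 and 33 reads in each library. Higher in the NLS library were a position shared by ZSCAN31 and ZKSCAN3, overlapping genes of zinc finger proteins, at chr6:28352562-28352562 (21 of 21 against 9 of 28), and LOC124900954 at chr5:32561374-32561374 (22 of 26 against 4 of 25). Outside genes, chr1:17163207-17163207 had 23 of 29 against 2 of 20 and chr20:28898861-28898861 18 of 26 against 2 of 29. Adjusted p of these 4 ran from 0.0238 to 0.0351 by the same test. Lower in the NLS library was GRN, the gene of the lysosomal protein progranulin, at chr17:44346297-44346297 (9 of 23 against 24 of 24, adjusted p = 0.0351 by Fisher's exact test). RGL1, a gene of the Ras pathway, at chr1:183700877-183700877 had 10 of 21 against 33 of 33. TYW1B, a gene of tRNA wybutosine synthesis that overlaps the pseudogene RN7SL377P there, had 2 of 31 against 17 of 27 at chr7:72822908-72822908. Outside genes, chr10:38485646-38485646 had 9 of 29 against 23 of 23 and the lowest adjusted p of all members, 0.00837 by that test, chr19:58539415-58539415 had 5 of 23 against 23 of 25, and chrY:10647977-10647977 10 of 28 against 27 of 29. At 4 of the 11 called sites 1 library was at 100%.

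Members with a control rate under 1% and 100 reads or more in each library, the background on which a low level of editing would stand out, numbered 7993. The highest NLS rates there were 10.8% at chr10:38528836-38528836 (15 of 139 against 1 of 127), 9.40% at chr9:130970617-130970617 (11 of 117 against 1 of 113) and 9.26% at chr4:49112278-49112278 (10 of 108 against 1 of 130). The next were 7.96% at chr9:63823780-63823780 (18 of 226 against 1 of 151), 7.14% at chr4:49632683-49632683 (8 of 112 against 1 of 139) and 6.71% at chr1:143267118-143267118 (11 of 164 against 1 of 120). All 6 lay outside genes, and their adjusted p ran from 0.193 to 0.594 by Fisher's exact test. The same search with the libraries exchanged, added after the data were seen, found 8013 sites, the highest at 13.2% in the control (chr4:49110511-49110511, 16 of 121 against 1 of 121). It was followed by 9.76% (chr4:49655875-49655875, 12 of 123 against 1 of 103) and 7.69% (chrY:11260086-11260086, 9 of 117 against 1 of 138). A site in IGL had 9 of 121 changed reads in the control against 1 of 102. The top rates in the 2 directions thus ran from 6.71% to 10.8% and from 6.58% to 13.2%.

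The mitochondrial genome gave the most precise view. Its 2621 members had at least 394 reads in the NLS library and 369 in the control. Of these, 27 sites were at 98.5% or more in both libraries, 5 had a rate of 1% to under 80% in either, and 2589 were under 1% in both. At the 27 the largest gap was 0.710 points. RNR2, which encodes the large ribosomal RNA of the mitochondrion, had a site at position 2141 with 5280 of 5280 changed reads against 5068 of 5072, and another at 2706 with 4261 of 4263 against 4236 of 4236. RNR1, the small ribosomal RNA, had 4505 of 4507 against 4537 of 4537 at 750 and 3896 of 3900 against 3877 of 3877 at 1438. Position 14233 in ND6 had 6127 of 6128 against 5847 of 5848, and 16519, outside annotated genes, 1859 of 1859 against 1747 of 1747. The highest rate below this group was 7.33% against 6.83% at 3109 in RNR2.

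**Figure D3:**
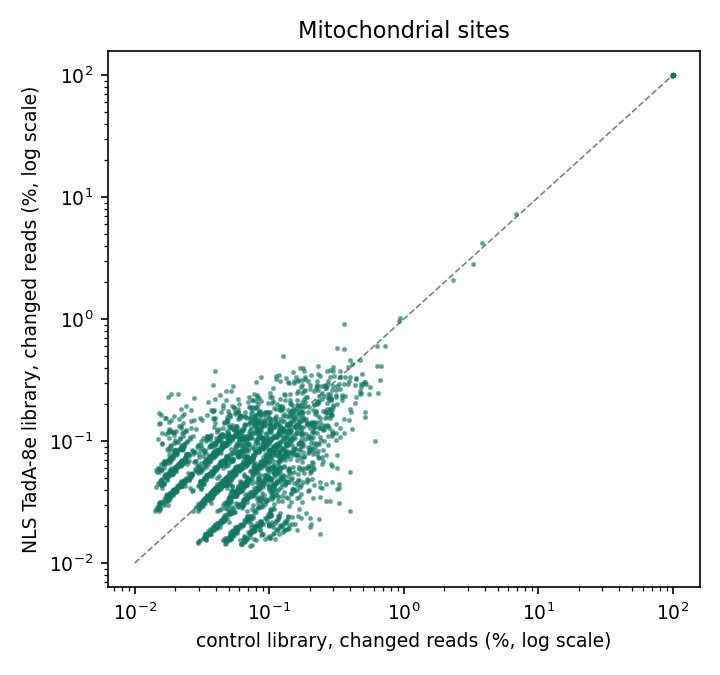
Rates of the 2621 mitochondrial members, control library on the horizontal axis and NLS TadA-8e library on the vertical axis, both in percent of reads on log axes, with the dashed line at equal rates. 27 sites lie at 98.5% or more in both libraries, and 2589 form a cloud under 1% around the line.

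Below 80% the pooled mitochondrial rate was 0.0893% in the NLS library and 0.0931% in the control, a difference of −0.00388 points (95% interval −0.00622 to −0.00154) over 2594 sites. With the 27 high sites included it was 1.01% against 1.00%, 0.0110 points (0.00327 to 0.0186), so the sign depended on including them. Taken alone, these 27 were also lower in the NLS library, at 99.87% against 99.92% (−0.0494 points, −0.0757 to −0.0230). A larger share of all mitochondrial reads fell at them in the NLS library, 120051 of 13000140 against 116738 of 12854165 in the control. They held 119892 of 131389 changed reads in the NLS library and 116641 of 128505 in the control. The median of site rates was 0.0650% and 0.0641%. No mitochondrial site was called in either direction by Fisher's exact test with adjustment over all members, and at an unadjusted p under 0.05 42 were higher in the NLS library (1.60%) and 59 in the control (2.25%), both shares below the 3.07% and 3.1% of all members. The lowest p values, chosen after they were seen, were at 14628 in ND6, with 3 of 5388 against 20 of 5024, at 1815 in RNR2, with 1 of 3767 against 14 of 3542, and at 8586 in ATP6, with 2 of 4859 against 15 of 4536. All were higher in the control, with adjusted p from 0.132 to 0.254 by that test.

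All 37 mitochondrially encoded genes had members, 2461 sites in all. Over sites with a mean rate under 80%, and counting positions outside genes as a group, 14 groups had at least 50 sites, and 3 were higher in the NLS library and 11 lower. The counting interval lay below 0 in 4 of them and above 0 in none. COX3, a subunit of cytochrome oxidase, had 0.0746% against 0.0905% (118 sites), ND1 and ND6, subunits of complex I, 0.0806% against 0.0951% (179 sites) and 0.0726% against 0.0841% (103 sites), and positions outside genes 0.0831% against 0.0945% (154 sites). CYTB, a subunit of complex III, had the largest rise of the 14, 0.110% against 0.108% (210 sites), with an interval that spans 0. ND4L, just under the minimum with 49 sites, had 0.100% against 0.0778%. Among tRNA genes, all 8 members in TRNA, the alanine tRNA gene, were higher in the control (0.0565% against 0.142%), while TRNG, the glycine tRNA gene, had 0.155% against 0.0712% over 7 sites.

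The other gene lists held few members. Of 18 genes transcribed strongly in K562, 2 had a member: HBZ, the embryonic zeta globin gene, with 33.3% of 27 reads against 9.09% of 22, and TAL1, an erythroid transcription factor gene, with 6.45% of 31 against 8.00% of 25. Neither passed the test. EEF1A1, a translation elongation factor gene, had 7 listed sites and no member, with at most 18 control reads at any of them. The ribosomal DNA genes held 22 members, 17 higher in the NLS library and 5 lower, at 3.17% against 3.25% pooled and with none called. Genes of inosine repair and A-to-I enzymes held 35 members in 4 of 6 genes, of which 31 lay in ADARB1, an RNA editing enzyme gene (29.5% against 32.5%). ENDOV and MPG, which act on inosine or hypoxanthine in nucleic acid, had 1 each, and none of the 35 was called.

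Positions edited in RNA were next compared with the same positions in DNA. Of 560441 sites called in K562 NLS poly(A) RNA, 33 were listed in DNA and 19 were members, 12 of them mitochondrial. A position changed only in the NLS library cannot be listed, so the overlap does not show how often DNA changed at RNA-edited positions. The match used the position alone, since the DNA table names no strand. Pooled over the 19, the DNA rate was 0.157% in the NLS library (90 of 57383 reads) and 0.137% in the control (78 of 56990), a difference of 0.0200 points (95% interval −0.0244 to 0.0644). The NLS library was higher at 9 and lower at 10, and none was called in either direction by Fisher's exact test, 1 having an unadjusted p under 0.05. That site was 7237 in COX1 with 12 of 4958 against 1 of 4762 (adjusted p = 0.388 by Fisher's exact test) and RNA rates of 0.0711% and 0.124%.

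Most of the 7 nuclear positions lay in ribosomal protein genes, which have many near-identical copies, so that reads of a copy may be counted there; this was not tested. The highest RNA rate was in TEKT4P2, a tektin pseudogene on chromosome 21, at 27.8% and 40.0% in RNA and 19.4% against 13.8% in DNA (6 of 31 and 4 of 29). SMAP2, a gene of vesicle traffic, had 4.97% and 6.06% in RNA and 4 of 22 against 1 of 31 in DNA. RPL6 had 3.55% and 3.41% in RNA and 6 of 29 against 2 of 26 in DNA. RPS2 had 4 of 27 against 4 of 26, RPS26 4 of 41 against 4 of 33 and RPL12 7 of 51 against 6 of 50, each with an RNA rate under 1%. In RPL6, RPS2, RPS26 and RPL12 the control DNA rate was above both RNA rates. In RNA of the NES form, 41 of 945447 sites were listed in DNA and 12 were members, 6 of them shared with the NLS set.

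Hairpins of microRNA genes gave a further set of sites with known sequence. Of 1562 hairpins in RefSeq, 8 held a member, 21 sites in all. The hairpins of MIR1299 and MIR8078 held 15 of them and are printed 5′ to 3′ as RNA, with member positions in capitals, A where the listed base is an adenosine of this strand and U where it is one of the opposite strand.

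MIR1299, chr9:40929010-40929092, minus strand: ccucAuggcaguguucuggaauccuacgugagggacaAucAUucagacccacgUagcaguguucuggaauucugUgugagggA
MIR8078, chr18:112256-112339, minus strand: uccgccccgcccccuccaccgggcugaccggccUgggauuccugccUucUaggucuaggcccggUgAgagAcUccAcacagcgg

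The 7 sites of MIR1299 pooled to 7.64% in the NLS library and 5.48% in the control, 2.16 points apart with a counting interval of −0.907 to 5.24. The 8 sites of MIR8078 pooled to 3.88% and 3.87%. Within it, position 71 had 78 of 413 against 69 of 375 changed reads, while position 76 had 10 of 415 against 2 of 377 and position 50 had 6 of 317 against 15 of 287. Neither of the last 2 passed the adjusted test, with adjusted p of 0.760 and 0.695 by Fisher's exact test. Adjacent sites of 1 hairpin share reads and are not independent.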

How the data were processed

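Genomic DNA of K562 cells was sequenced after a TruePrep tagmentation library, per the labels' protocols, 1 library per arm. Per the submitters' processing notes, bedtools 2.27.0, cutadapt 2.6, STAR, SAMtools and Picard were used with build hg38; how sites were called is not given in the sources used here. Per the file headers, the authors deposited for each site a count of changed reads and a count of all reads in each library, with a p-value and an adjusted p-value, which is 1 in every row. Over 20000 sampled rows the deposited p-value equalled, within a relative tolerance of 0.001, Fisher's exact test on changed and total reads in 100% of rows, so changed reads enter that table of counts in both cells; here changed and unchanged reads were tested. The RNA tables hold, as deposited by the authors, a fraction of changed reads per site and library, without depth.

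Members needed 20 reads in both libraries. Fisher's exact test and exact binomial intervals at 95% came from scipy 1.17.1 (numpy 2.4.6, pandas 2.3.3), and the test was tested on simulated counts. Those counts were drawn as independent reads, without the excess of even counts or the listing limit of the data. That check therefore does not give the rate of false calls here. Intervals of differences are normal approximations over reads. Genes, hairpins and sequence came from RefSeq GRCh38.p14; no genome was used. A planned match of RNA sites by strand was made by position only, and the planned sequence context was read from promoter windows. Named sites were, by rule, the called ones (8 largest differences with 100 reads, 6 lowest adjusted p per direction), the 6 highest NLS rates over a control under 1%, the 3 highest mitochondrial rates per library, and 6 RNA-edited positions by RNA rate and 6 by DNA difference; later choices are marked. Members, rule and lists were chosen with earlier results of these data known. Alternatives were the read minimum, control rate, an upper limit on reads, weighting, thresholds, class limits, leaving out mitochondrial DNA, halved counts and a limit on the mean rate; the last 2 were added after the data were seen. Some sites that the rule names are not reported here.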

Additional observations from a re-analysis of the deposited data

Results flagged for a closer look

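Reads at EEF1A1, the gene of elongation factor 1 alpha on the list of strongly transcribed genes, stood apart in the NLS library. None of its 7 listed sites is a member, since the control had 7 to 18 reads at each. At chr6:73520805-73520805, 227 bases into the gene from its annotated start, the NLS library had 11484 reads, the most at any listed site of either library, and the control had 18, with rates of 99.96% and 100%. At 3 positions 986 to 990 bases into the gene the NLS library had 192, 316 and 743 reads, with 177, 302 and 731 changed, and the control 1 changed of 9 at each. Further into the gene, 1989 to 2749 bases from its start, the 3 remaining sites had 9 to 18 NLS reads and 7 to 12 control reads. Of 20091 listed sites with at least 100 reads in either library, 6 differed at least 5 times in reads, all deeper in the NLS library: these 4, a site in CWC27 (169 against 11 reads) and chr2:16525599-16525599 (179 against 13). No member differed by more than 3.35 times. With no minimum of reads, 3 of the 10 sites called higher in the NLS library were those in EEF1A1. The sequence of the expression plasmid is not used here, and the origin of these reads was not tested.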

How the results depend on the processing

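The number of sites called by Fisher's exact test, 5 higher and 6 lower in the NLS library, rested on few reads. It was 8 and 7 with at least 10 reads, 10 and 7 with no minimum, 0 and 1 at a threshold of 0.01, and 0 and 0 with at least 50 reads, with a control rate or a mean rate under 5%, with halved counts and by the authors' deposited adjusted p. At an unadjusted p under 0.05 the first 4 of these gave 939 and 1029, 803 and 279, 306 and 359, and 520 and 518. A minimum of 50 reads leaves out 10 of the 11 called sites, and the limit on the mean rate leaves out all 11. The deposited adjusted p has the same value in every row, so it could call no site. The pooled difference over all members, −0.152 points, was −0.484 with at least 10 reads, −0.450 with no minimum, −0.0402 with at least 50, −0.214 below 10 times the median depth, −0.334 without the mitochondrial genome, −0.0134 as a mean of site rates, −0.00700 at a mean rate under 5% and 0.0617 at a control rate under 5%. The nuclear difference, −0.334 points, was −0.768, −0.674, −0.119 and −0.214 in the first 4 of these, −0.0136 as a mean, −0.0185 and 0.122 in the last 2. The mitochondrial difference of 0.0110 points turned to −0.00404 at a control or mean rate under 5% and to −0.00471 as a mean of site rates. At RNA-edited positions, 0.0200 points became 1.55 with no minimum, which lets in 2 EEF1A1 positions, 1.96 below 10 times the median depth, which leaves the 7 nuclear ones, and 0.581 as a mean. The share of members in the same rate class, 74.9%, was 79.2% with at least 10 reads, 80.5% with no minimum, 73.6% below 10 times the median depth, 74.4% at a mean rate and 67.4% at a control rate under 5%. The other 15 of 55 values stayed within counting error or 1.5 times. Among named sites 16 of 212 values lost their call and none gained one; LAMC3 lost it with at least 10 or 50 reads, with no minimum and at a control rate under 5%. No paired analysis was possible because each arm has 1 library. At 100 reads in both libraries, a further site with 2 changed control reads needed an NLS rate of 23%.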
